A study of Mus musculus with 43 samples.

Results

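The 10 genes described here belong to the inflammasome and the interleukin-1 (IL-1) family: the sensor Nlrp3, the adaptor Pycard, the proteases Casp1 and Casp4, the pore protein Gsdmd, the cytokines Il1a, Il1b and Il18, and the secreted antagonists Il1rn and Il18bp. They were chosen by gene symbol, with earlier results of these data known. Each symbol had 1 probe set, so that 10 of the 19752 genes measured on the arrays are members. An inflammasome is a cytosolic complex in which a sensor such as NLRP3 recruits the adaptor ASC, the product of Pycard, and thereby activates caspase-1. Caspase-1 cleaves the precursors of IL-1 beta and IL-18 and opens the pore protein gasdermin D, whereas the mouse caspase encoded by Casp4 is activated directly by bacterial lipopolysaccharide in the cytosol. The family is held in check outside the cell by the receptor antagonist that Il1rn encodes and by the IL-18 binding protein that Il18bp encodes, and many of these genes act mainly in phagocytes.

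RNA was profiled on 43 Affymetrix Mouse Gene 1.0 ST arrays from sorted immune cells of C57BL/6 mice, all males 6 weeks of age. The mice were either untreated (26 arrays, called baseline) or had been injected under the skin with 10000 U of interferon alpha and taken 2 h later (17 arrays). The 9 cell types fell into 3 myeloid types and 6 lymphocyte types. The myeloid types were splenic neutrophils sorted by Ly6G, splenic dendritic cells (CD11c+ Flt3+) and macrophages of the peritoneal cavity, sorted by the antigen that Adgre1 encodes. The lymphocytes, all labelled as spleen cells by title or source, were NK cells, NKT cells, gamma-delta T cells, CD8+ T cells, CD4+ T cells and, sorted as CD4+ CD25+, regulatory T cells. Each type had 3 baseline arrays and 2 interferon arrays, except neutrophils with 2 baseline arrays and macrophages with 1 interferon array. No genotype other than the C57BL/6 background is labelled, and the labels mention no vehicle injection of untreated mice. Since the labels do not tell whether arrays stem from separate animals, p-values measure only the spread between arrays, which may be technical.

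Some labels limit the groups. Blood is the labelled source of arrays 1 and 2 of untreated CD8+ T cells, and spleen is named in the preparation of arrays 1 and 2 of untreated macrophages, so results of these types are also given against baseline array 3 alone. The wording of the cell preparation differed between baseline and interferon arrays of neutrophils, NKT cells, NK cells and CD4+ T cells, where preparation and interferon cannot be told apart. Baseline array 3 of dendritic cells, gamma-delta T cells, regulatory T cells and CD8+ T cells shared the wording of the interferon arrays. A term for preparation wording rests on types whose baseline arrays differ in wording. It therefore does not test preparation in neutrophils, NKT cells, NK cells or CD4+ T cells. By defining markers every labelled type had its own marker list highest, except that the CD4+ T cell list of Cd3e and Cd4 was as high in regulatory T cells. Of the 43 arrays, 41 correlated best with another array of their own type, and the exceptions were gamma-delta T cell baseline array 2 and interferon array 1. The gamma-delta T cell arrays also carried B cell markers, with a summed intensity of 2270 to 10140 at baseline and 2360 to 9250 after interferon. Dendritic cell arrays carried them too, at 1950 to 3025 at baseline and 1877 to 1949 after interferon. There, 3 of the 4 markers lay below every baseline array after interferon. In bulk RNA of sorted cells, a change in the share of a contaminating cell and a change in RNA per cell cannot be told apart.

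The promoters of 4 members are shown because Casp1, Casp4 and Il18 were the members raised on average over the cell types and Il18bp was, with Casp1 and Il18, 1 of the members whose change differed among them. The windows come from RefSeq (GRCm38.p6) and run from 250 bases before to 50 bases after the transcription start, written 5′ to 3′ on the gene's strand, with matches to the searched motifs in capitals. They lie at chr9:5298267-5298566 (plus strand) for Casp1, chr9:5308599-5308898 (plus strand) for the first Casp4 start, chr9:50554450-50554749 (plus strand) for Il18 and chr7:102018183-102018482 (minus strand) for Il18bp.
Casp1: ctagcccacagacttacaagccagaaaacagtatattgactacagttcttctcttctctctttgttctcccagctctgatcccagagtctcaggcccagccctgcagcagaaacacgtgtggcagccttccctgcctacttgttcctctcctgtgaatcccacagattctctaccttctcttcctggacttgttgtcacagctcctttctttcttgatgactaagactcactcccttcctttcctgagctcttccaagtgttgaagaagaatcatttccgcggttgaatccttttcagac
Casp4: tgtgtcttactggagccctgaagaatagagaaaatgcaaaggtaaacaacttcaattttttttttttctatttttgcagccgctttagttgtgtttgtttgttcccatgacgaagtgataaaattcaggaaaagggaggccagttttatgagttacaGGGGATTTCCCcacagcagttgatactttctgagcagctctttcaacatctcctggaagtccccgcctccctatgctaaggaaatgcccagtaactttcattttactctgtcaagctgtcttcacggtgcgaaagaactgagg
Il18: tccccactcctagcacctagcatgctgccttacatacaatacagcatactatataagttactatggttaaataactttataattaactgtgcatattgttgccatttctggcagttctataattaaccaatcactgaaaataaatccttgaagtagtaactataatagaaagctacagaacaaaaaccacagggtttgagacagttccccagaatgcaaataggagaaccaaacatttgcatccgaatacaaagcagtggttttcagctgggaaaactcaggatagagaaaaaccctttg
Il18bp: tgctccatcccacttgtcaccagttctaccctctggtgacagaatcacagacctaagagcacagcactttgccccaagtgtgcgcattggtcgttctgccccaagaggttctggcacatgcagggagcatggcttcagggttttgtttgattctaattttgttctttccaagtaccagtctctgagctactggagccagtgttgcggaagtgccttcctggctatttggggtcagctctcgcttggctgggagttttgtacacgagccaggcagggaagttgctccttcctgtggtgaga
Of the 10 members, 9 had a RefSeq window, with 13 windows in all. Both strands were searched for the core of the interferon-stimulated response element (GAAANNGAAA), the core of the gamma-activated site (TTCNNNGAA), a shorter pair of interferon regulatory factor half-sites (GAAANNGAA, which the response element core contains) and the kappaB consensus of NF-kappaB. The response element core was present in 3.44% of 32851 windows of all genes, the gamma-activated core in 8.3%, the half-site pair in 8.56% and kappaB in 4.51%. None of the members' windows held any of these but kappaB, which says only that these letters are not in these windows. The capitals in the Casp4 window are overlapping kappaB matches between positions -93 and -83 from the start, and the only other member with a match was Nlrp3, between -186 and -177 in its first window. Casp1 and Casp4 are neighbours on chromosome 9 with 0 coding genes between them in RefSeq order, and Il1a and Il1b are neighbours on chromosome 2 in the same way.

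The baseline levels are described first, as log2 intensity, by role in the pathway. A gene counted as called in a comparison when its Benjamini-Hochberg adjusted p from limma was below 0.05 over all genes and the log2 change was at least 1, which is a fold of 2. Tests over all types at once and pairs of types at baseline used the adjusted p alone. All 10 members differed among the 9 types at baseline by the limma F test, as did 56.4% of all genes, so that this count says little about the members. Probe sets differ in brightness, so a level was compared only with other levels of the same gene.

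**Figure D1:**
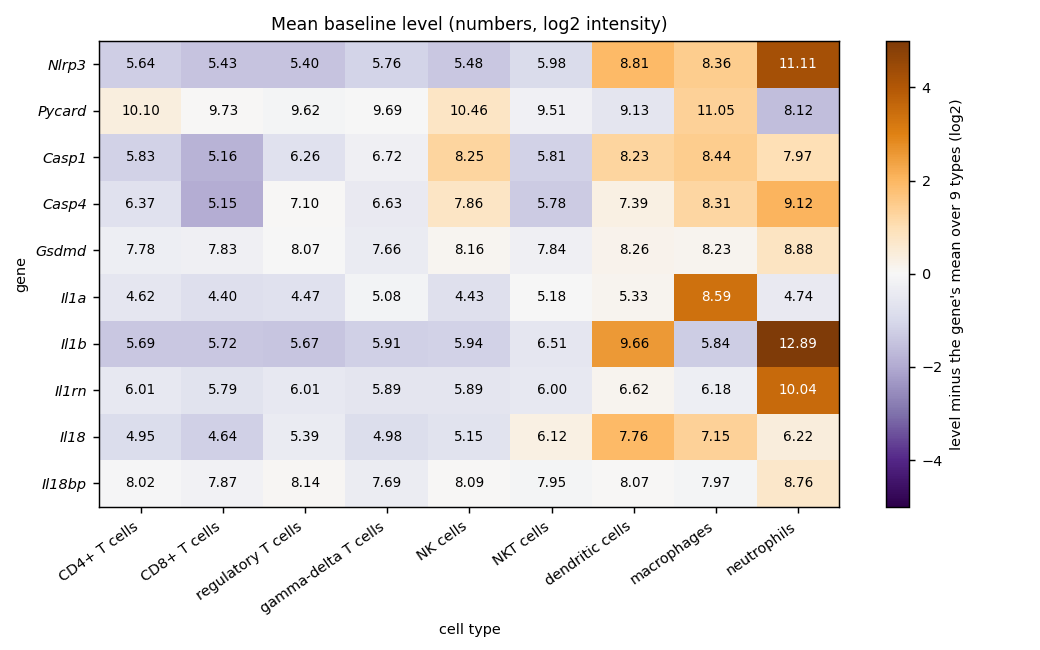
Mean baseline log2 intensity of each gene (rows) in each of the 9 cell types (columns), printed in the cells, with colour for the level minus the gene's own mean over the types. Nlrp3, Il1b and Il1rn are brightest in neutrophils (11.11, 12.89 and 10.04), Il1a in macrophages (8.59), and Pycard is lowest in neutrophils (8.12).

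Nlrp3, the sensor that responds to potassium efflux and membrane damage, was a gene of the 3 myeloid types. Its baseline level was 11.10 and 11.11 on the neutrophil arrays, 8.87, 8.98 and 8.57 on the dendritic cell arrays and 7.87, 8.66 and 8.57 on the macrophage arrays. The 18 lymphocyte arrays at baseline lay below all of these. Neutrophils exceeded dendritic cells by 2.30 (adjusted p = 7.14e-10), dendritic cells and macrophages did not differ beyond their spread (adjusted p = 0.159), and macrophages exceeded the next type, NKT cells, by 2.38 (adjusted p = 1.68e-11). Among the 6 lymphocyte types, group means ran from 5.40 in regulatory T cells to 5.98 in NKT cells with no neighbours in that order differing.

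Pycard, the adaptor that links sensors to caspase-1, was the one member whose level was lowest in a myeloid type. It stood at 10.90, 11.09 and 11.17 on the macrophage baseline arrays, above every baseline array of the other types, and both neutrophil arrays lay below all others. Macrophages exceeded NK cells (10.46 ± 0.15, SD, n = 3) by 0.59 (adjusted p = 0.00793), and dendritic cells (9.13 ± 0.182, n = 3) exceeded neutrophils (8.12 ± 0.171, n = 2) by 1.01 (adjusted p = 5.67e-05). From NK cells down to dendritic cells no neighbours in the order differed.

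Casp1, the protease that matures IL-1 beta and IL-18, had a high set of types above a graded rest. Macrophages (8.44 ± 0.463, n = 3), NK cells (8.25 ± 0.152, n = 3), dendritic cells (8.23 ± 0.0632, n = 3) and neutrophils (7.97 ± 0.346, n = 2) did not differ from neighbour to neighbour. Neutrophils exceeded gamma-delta T cells (6.72 ± 0.183, n = 3) by 1.25 (adjusted p = 3.76e-05), and the lowest level was that of CD8+ T cells (5.16 ± 0.0723, n = 3). The latter lay 0.66 below NKT cells (adjusted p = 0.0195), and 25 of the 36 pairs of types differed. NK cells were thus the one lymphocyte type in the high set. Casp4, the lipopolysaccharide-sensing caspase, graded from neutrophils (9.12 ± 0.38, n = 2) through macrophages (8.31) and NK cells (7.86) to CD8+ T cells (5.15 ± 0.178, n = 3), and no neighbours differed although 24 of the 36 pairs of types did. Over all genes, 21.6% of pairs differed.

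Gsdmd, whose cleaved product forms the pores of pyroptosis, varied little. Group means at baseline ran from 7.66 in gamma-delta T cells to 8.88 in neutrophils, which exceeded dendritic cells by 0.63 (adjusted p = 0.0149), and 11 of 36 pairs differed. The 4 types with high Casp1 also had the highest Gsdmd means, at 8.16 or above, and the other types lay at 8.07 or below. The step between these sets, from NK cells to regulatory T cells, was 0.10 (limma adjusted p = 0.927), within the spread.

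The cytokines differed from each other in where they were high. Il1b, the inflammasome-processed cytokine of fever and inflammation, reached 12.84 and 12.93 in neutrophils and 9.65, 9.65 and 9.68 in dendritic cells, whereas the 3 macrophage arrays gave 6.07, 5.73 and 5.71. Neutrophils exceeded dendritic cells by 3.23 (adjusted p = 5.22e-09), dendritic cells exceeded NKT cells by 3.15 (adjusted p = 8.96e-10), and no later neighbours in the order differed. Macrophages therefore lay among the lymphocytes for Il1b. Il1a, which encodes an alarmin that needs no caspase-1 cleavage to be active, showed another order: 8.25, 8.85 and 8.68 in macrophages, against 5.16, 5.12 and 5.72 in dendritic cells and 4.44 and 5.04 in neutrophils. Macrophages exceeded dendritic cells by 3.26 (adjusted p = 1.4e-11), and no later neighbours differed. The neighbouring cytokine genes thus had their highest baseline levels in different phagocytes. Levels of Il1a up to 4.81 fall in the lowest 10% of all values on the arrays, so order among the lymphocytes carries little.

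Il18, a cytokine that drives interferon gamma production by NK and T cells, was graded rather than split. Dendritic cells stood at 7.95, 7.88 and 7.45, macrophages at 6.41, 7.46 and 7.58 and neutrophils at 6.22 on both arrays. The NKT cell arrays at 6.50, 5.61 and 6.26 overlapped the neutrophils. No neighbours in the order differed beyond their spread, and 21 of 36 pairs did.

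The antagonist Il1rn was high in neutrophils, at 9.94 and 10.15, and on no other baseline array above 6.72. Neutrophils exceeded dendritic cells (6.62 ± 0.106, n = 3) by 3.42 (adjusted p = 1.47e-15). Il18bp was close to even: neutrophils (8.76 ± 0.229, n = 2) exceeded regulatory T cells (8.14 ± 0.0249, n = 3) by 0.62 (adjusted p = 0.031), and the other group means lay between 7.69 and 8.09. The 2 antagonists of the family therefore differed in how far their baseline level depended on cell type, with 14 pairs of types differing for Il1rn and 8 for Il18bp.

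Set as a group against the 6 lymphocyte types, the 3 myeloid types had higher baseline levels of 7 of the 10 members, a call that 5.24% of all genes received, and none was lower, a call that 3.74% received. The log2 differences were 3.81 for Nlrp3 (SE 0.11), 3.56 for Il1b (SE 0.169), 1.88 for Casp1, 1.84 for Il18, 1.79 for Casp4, 1.69 for Il1rn and 1.52 for Il1a. These averages join unlike patterns, since the Il1b difference rests on neutrophils and dendritic cells and the Il1a difference on macrophages. Against baseline array 3 alone, which leaves out neutrophils, 6 of the 7 calls held: Il1rn, high in neutrophils, was at 0.50 (adjusted p = 0.0661), and Il1b at 1.65. Against the size needed for a call, Gsdmd at 0.57 and Il18bp at 0.31 were too small, and Pycard stood at -0.42. The median over the 10 members was 1.74 and over all genes 0.02.

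The changes of the 10 members after interferon followed few patterns. Casp1 and Casp4 were higher on the interferon arrays of every cell type, Il18 and Il18bp rose most in neutrophils and macrophages, and Nlrp3 and Pycard received no call in any type. Summed over the 9 types, members were called raised 23 times and lowered 0 times. Of all genes, between 0.901% and 2.89% were raised in a given type and between 0.0253% and 2.85% lowered. With 10 members, the 0 lowered calls therefore say little. On average over the types 3 members were raised (Casp1, Casp4 and Il18) where 1.26% of all genes were, and none was lowered where 0.0658% were. The median mean change was 0.48 over the members and -0.01 over all genes.

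**Figure D2:**
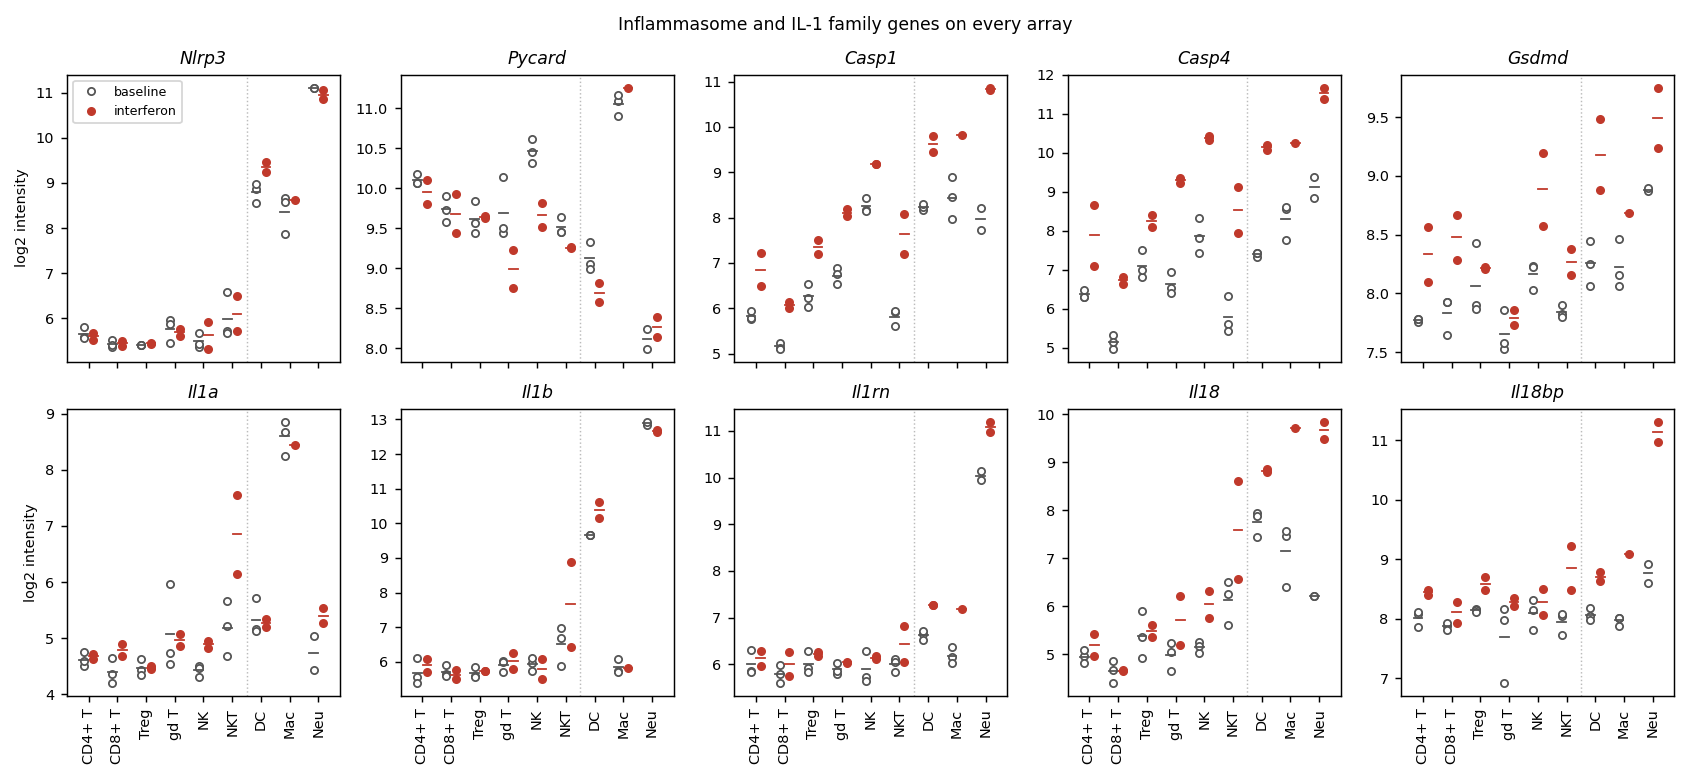
Log2 intensity of each gene on each of the 43 arrays, by cell type (gd T, gamma-delta T cells; Treg, regulatory T cells; DC, dendritic cells; Mac, macrophages; Neu, neutrophils), with open circles for baseline, filled circles for interferon and short bars for group means; axes differ between genes. Every interferon array of Casp1 and Casp4 lies above the baseline arrays of its type, while the Nlrp3 groups lie close together.

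By cell type, the calls were uneven. CD4+ T cells had 2 members raised (Casp1 and Casp4) against 0.901% of all genes, CD8+ T cells 1 (Casp4) against 1.00%, regulatory T cells 1 (Casp1) against 1.11% and gamma-delta T cells 2 (Casp1 and Casp4) against 1.53%. NK cells had 1 (Casp4) against 1.25%, and dendritic cells had 2 (Casp1 and Casp4) against 2.34%. Most calls lay in 3 types: NKT cells with 5 (Casp1, Casp4, Il1a, Il1b and Il18) against 2.89%, macrophages with 4 (Casp1, Casp4, Il18 and Il18bp) against 1.35% and neutrophils with 5 (Casp1, Casp4, Il1rn, Il18 and Il18bp) against 2.43%. The 4 macrophage calls rest on 1 interferon array, with the spread taken from the other groups, and none held against baseline array 3 alone. No member was lowered in any type, where the share of all genes was 2.85% in neutrophils, 0.263% in macrophages and 0.810% in dendritic cells. Among the lymphocytes it was 0.380% for NKT cells, 0.537% for NK cells, 0.683% for gamma-delta T cells, 0.0253% for regulatory T cells, 0.319% for CD8+ T cells and 0.0658% for CD4+ T cells. The members' median change was 0.85 in neutrophils against 0.08 over all genes, 1.03 in NKT cells against -0.10, and 0.12 in regulatory T cells against 0.00.

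**Figure D3:**
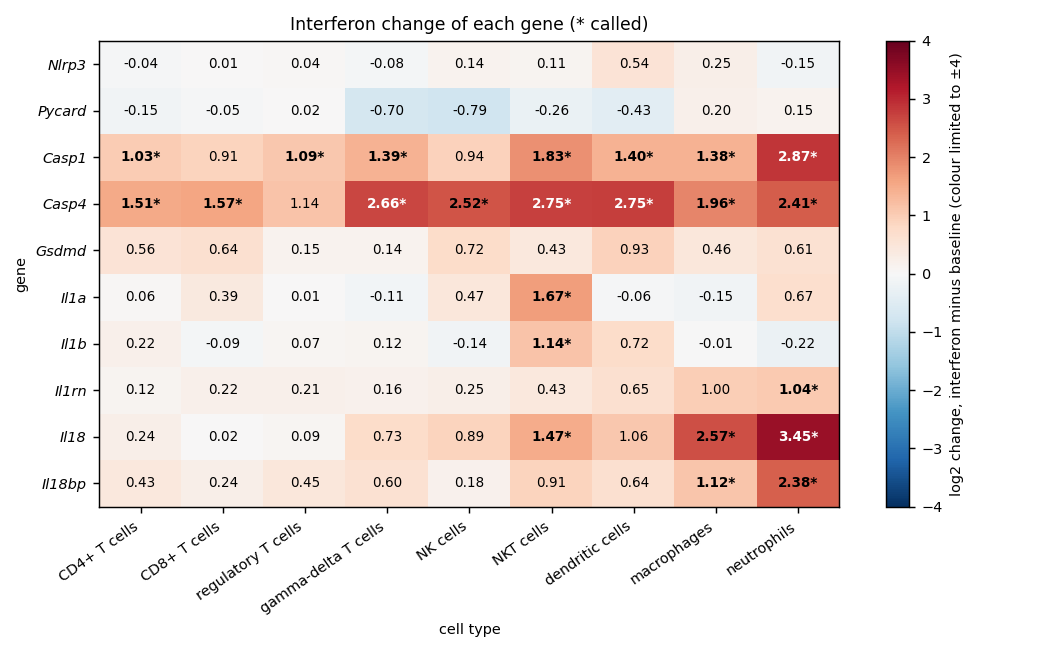
Log2 change of each gene (rows) in each cell type (columns), interferon mean minus baseline mean, printed in the cells; a star marks an adjusted p below 0.05 with a change of at least 1 in either direction. The Il1rn change in macrophages, printed as 1.00, lies just below the size threshold, and the strongest colours are those of Il18 (3.45) and Casp1 (2.87) in neutrophils.

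Casp1 rose by 1.42 on average (SE 0.0796, adjusted p = 2.31e-16). In neutrophils its level went from 7.73 and 8.22 to 10.87 and 10.82, a 7.32-fold rise (2.87, SE 0.251, adjusted p = 1.79e-10). In dendritic cells it went from 8.17, 8.23 and 8.29 to 9.45 and 9.81 (1.40, SE 0.229, adjusted p = 4.63e-05), and in gamma-delta T cells from 6.89, 6.52 and 6.75 to 8.18 and 8.04 (1.39, adjusted p = 8.42e-05). In each of these types the groups did not overlap. In 2 lymphocyte types the size threshold was missed. CD8+ T cells went from 5.24, 5.12 and 5.11 to 6.13 and 6.00 (0.91, adjusted p = 0.0206), with 0.95 (adjusted p = 0.351) against baseline array 3 alone. NK cells stood at 8.16, 8.16 and 8.42 at baseline and at 9.18 and 9.19 after interferon (0.94, adjusted p = 0.0126). The single macrophage interferon array stood at 9.82 after 7.97, 8.46 and 8.89 (1.38, adjusted p = 0.00331), and against baseline array 3 alone the difference was 0.93 (adjusted p = 0.349), which ends the call. The calls in CD4+ T cells (1.03) and regulatory T cells (1.09) lay close to the threshold and fell below it with a term for preparation wording, to 0.90 and 0.96. CD4+ T cell arrays cannot estimate that term, so the value of 0.90 does not test preparation in that type. With CD4+ T cells fitted alone in limma, their Casp1 change did not pass (adjusted p = 0.0888). Without interferon array 2, the CD4+ T cell change was 0.65 (adjusted p = 0.333) and that of regulatory T cells 0.93 (adjusted p = 0.278).

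Casp4 had the largest mean change of the members, at 2.14 (SE 0.116, adjusted p = 9.82e-17). In dendritic cells the arrays went from 7.32, 7.42 and 7.43 to 10.09 and 10.20, a 6.75-fold rise (2.75, SE 0.333, adjusted p = 2.15e-07). In NK cells they went from 7.43, 8.33 and 7.81 to 10.33 and 10.42 (2.52, adjusted p = 2.14e-06), and in gamma-delta T cells from 6.95, 6.54 and 6.41 to 9.22 and 9.36 (2.66, adjusted p = 7.76e-07). In all 3 of these types the groups did not overlap. In neutrophils, which had the highest baseline, Casp4 went from 8.85 and 9.39 to 11.68 and 11.38 (2.41, adjusted p = 1.24e-05). In macrophages it went from 7.76, 8.56 and 8.60 to 10.26 (1.96, adjusted p = 0.00454), and the call was lost against baseline array 3 alone (1.67, adjusted p = 0.214). The smallest change was in regulatory T cells, from 6.82, 6.98 and 7.51 to 8.10 and 8.40 (1.14, adjusted p = 0.0973), which did not pass. The CD4+ T cell interferon arrays disagreed with each other, at 7.10 and 8.66 after baseline values of 6.31, 6.30 and 6.48, so that the change of 1.51 (adjusted p = 0.00748) became 0.73 (adjusted p = 0.42) without interferon array 2. In CD8+ T cells the change was 1.57 (adjusted p = 0.00374), and it was the same size against baseline array 3 alone (adjusted p = 0.229). With CD4+ T cells fitted alone in limma, their Casp4 change did not pass (adjusted p = 0.0761). The limma F test for unequal Casp4 changes among the types did not pass (adjusted p = 0.111).

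Casp1 and Casp4 were the members whose interferon arrays lay above all baseline arrays of the type in 9 of 9 types. Of all genes, between 10.7% (gamma-delta T cells) and 29.6% (neutrophils) did so in a given type. The share of all genes that did so in 9 of 9 types is not given here, so the 9 of 9 has no like comparison. In dendritic cells 8 members lay above, where 17% of all genes did, and in neutrophils 7 did. Below all baseline arrays lay 1 member in dendritic cells (26.1% of all genes) and 2 in neutrophils (24.7%), the latter Nlrp3 and Il1b. The dendritic cell member was Pycard, which also lay below in NKT cells, NK cells and gamma-delta T cells (28.6%, 14.2% and 13% of all genes).

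Gsdmd had small changes of 1 sign. The largest was in dendritic cells, from 8.07, 8.25 and 8.45 to 8.88 and 9.49 (0.93, SE 0.201, adjusted p = 0.00198), below the size threshold. In NK cells it went from 8.03, 8.24 and 8.22 to 9.20 and 8.58 (0.72, adjusted p = 0.0347). The mean over the types was 0.51 (SE 0.0698, adjusted p = 4.35e-07), and gamma-delta T cells (0.14) and regulatory T cells (0.15) had overlapping groups. Gsdmd thus received no call in any type.

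Nlrp3 had a mean change of 0.09 (SE 0.0812, adjusted p = 0.461). Its neutrophil arrays stood at 11.10 and 11.11 before and 10.86 and 11.05 after (-0.15, adjusted p = 0.773), and its macrophage arrays at 7.87, 8.66 and 8.57 before and 8.61 after (0.25). The largest value was in dendritic cells, from 8.87, 8.98 and 8.57 to 9.23 and 9.46 (0.54, adjusted p = 0.217). Pycard had a mean change of -0.22 (SE 0.0657, adjusted p = 0.00951). In NK cells its arrays went from 10.32, 10.62 and 10.45 to 9.82 and 9.52 (-0.79, adjusted p = 0.00958), and in gamma-delta T cells from 10.15, 9.44 and 9.50 to 9.23 and 8.75 (-0.70, adjusted p = 0.0197). Both are below the size needed for a call, and the groups did not overlap. In neutrophils and macrophages Pycard differed by 0.15 and 0.20, so sensor and adaptor received no call in any type in which Casp1 rose.

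Il18 had the largest single change of any member. In neutrophils the arrays went from 6.22 on both to 9.49 and 9.84, a 10.9-fold rise (3.45, SE 0.409, adjusted p = 1.4e-07). The single macrophage interferon array stood at 9.72 after baseline values of 6.41, 7.46 and 7.58 (2.57, SE 0.472, adjusted p = 0.000564), and the difference was 2.15 (adjusted p = 0.159) against baseline array 3 alone. Neutrophils, which at baseline lay below dendritic cells for Il18, were above them after interferon. Dendritic cells went from 7.95, 7.88 and 7.45 to 8.80 and 8.85 (1.06, adjusted p = 0.09), which passed when the type was fitted alone (adjusted p = 0.00132). Regulatory T cells, CD8+ T cells and CD4+ T cells differed by 0.09, 0.02 and 0.24, with overlapping groups. The mean over the types was 1.17 (SE 0.13, adjusted p = 8.52e-09), and it was 0.99 without the macrophage interferon array.

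Il18bp, the decoy that binds IL-18, rose in 2 of the types in which Il18 rose. Neutrophils went from 8.60 and 8.92 to 10.97 and 11.31, a 5.20-fold rise (2.38, SE 0.254, adjusted p = 1.59e-08). The macrophage array stood at 9.09 after 8.02, 7.88 and 8.02 (1.12, adjusted p = 0.0305), with 1.08 (adjusted p = 0.149) against baseline array 3 alone. In NKT cells the arrays went from 8.04, 7.73 and 8.07 to 9.23 and 8.48 (0.91, adjusted p = 0.0104), short of the size for a call. Its mean change of 0.77 (SE 0.0807, adjusted p = 2.27e-09) was also short of it. The cytokine and its antagonist therefore were both raised in neutrophils, while in macrophages both calls rest on 1 interferon array and did not hold against baseline array 3 alone.

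Il1rn rose in neutrophils, from 9.94 and 10.15 to 11.20 and 10.98 (1.04, SE 0.222, adjusted p = 0.00117). With a term for preparation wording, which neutrophil arrays cannot estimate, Il1rn rose by 0.85. In macrophages it went from 6.15, 6.02 and 6.37 to 7.18 (adjusted p = 0.0264), a change that rounds to 1.00 and lies just under the threshold. Against baseline array 3 alone the macrophage change was smaller, at 0.81, and it rests on 1 interferon array. Dendritic cells went from 6.64, 6.51 and 6.72 to 7.26 and 7.27 (0.65, adjusted p = 0.0484). Lymphocyte changes lay between 0.12 and 0.43. The receptor antagonist thus had its larger changes in the myeloid types.

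The IL-1 cytokines received no call in a myeloid type. For Il1b the neutrophil arrays stood at 12.84 and 12.93 before and 12.65 and 12.68 after (-0.22, adjusted p = 0.784) and the macrophage arrays at 6.07, 5.73 and 5.71 before and 5.83 after (-0.01). Dendritic cells went from 9.65, 9.65 and 9.68 to 10.16 and 10.60 for Il1b (0.72, adjusted p = 0.328). Il1a in macrophages, where it was high, stood at 8.25, 8.85 and 8.68 before and 8.44 after (-0.15, adjusted p = 0.999).

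Whether a change was unequal among the types was tested directly. By the limma F test the changes of 3 members differed among the types (Casp1, adjusted p = 0.0032, Il18, adjusted p = 0.000523, and Il18bp, adjusted p = 0.00132), as did those of 4.16% of all genes. Against the mean of the other 8 types, neutrophils had larger changes of the same 3 genes: Casp1 by 1.63 (SE 0.264, adjusted p = 0.000111), Il18 by 2.57 (SE 0.431, adjusted p = 0.000188) and Il18bp by 1.81 (SE 0.268, adjusted p = 3.08e-05), where 1.04% of all genes were called. These differences ran from 1.38 to 1.87 for Casp1, from 2.39 to 2.81 for Il18 and from 1.64 to 1.98 for Il18bp over all alternatives that gave a value, and every such call held, also with any 1 neutrophil array left out. Among these alternatives, the mean of probe sets could not alter a member's values, and the preparation term cannot be estimated from neutrophil arrays. Between the 3 myeloid types and the 6 lymphocyte types, the Il18 change differed by 1.79 (SE 0.287, adjusted p = 0.000107), where 0.547% of all genes were called in that direction and 0.228% in the other. The differences for Il18bp (0.91, adjusted p = 0.00128), Casp1 (0.69, adjusted p = 0.0185) and Il1rn (0.66, adjusted p = 0.00885) were below the size for a call. The Il18 average joins unlike changes, since dendritic cells (1.06) changed less than NKT cells (1.47) and the macrophage change rests on 1 interferon array. Against baseline array 3 alone, which leaves out neutrophils, the Il18 difference was 1.29 and was not called.

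Another set of markers moved in the neutrophil comparison. All 4 measured B cell markers were below both baseline arrays on both interferon arrays, and their summed intensity was 2227 to 3930 at baseline and 344.2 to 396.9 after interferon. The summed intensity of the 6 macrophage markers was 1342 to 1411 at baseline and 766.8 to 925.7 after, and that of the 6 neutrophil markers 43010 to 48530 and 42660 to 45750. The part of these in the neutrophil results was not tested.

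NKT cells were the only type in which Il1a and Il1b were called. The Il1a arrays went from 5.21, 4.68 and 5.66 to 7.55 and 6.15 (1.67, SE 0.315, adjusted p = 0.000435), which exceeded the mean of the other 8 types by 1.51 (SE 0.336, adjusted p = 0.0274), where 0.294% of all genes were called. Il1b went from 6.98, 5.88 and 6.68 to 8.88 and 6.43 (1.14, SE 0.359, adjusted p = 0.0415), and Il18 from 6.50, 5.61 and 6.26 to 8.61 and 6.58 (1.47, SE 0.374, adjusted p = 0.00974). In all 3 genes interferon array 1 was the high one, and for Il1b interferon array 2 lay among the baseline arrays. The Il1b change lay 1.06 above the mean of the other types, a difference that did not pass (adjusted p = 0.23). Without interferon array 1 the changes were 0.96 for Il1a (adjusted p = 0.16), -0.080 for Il1b (adjusted p = 0.934) and 0.45 for Il18 (adjusted p = 0.64), and Il1a no longer exceeded the other types (0.80, adjusted p = 0.686). Baseline arrays mattered too: the Il1a excess over the other types did not pass without baseline array 1 (adjusted p = 0.0537) or array 2 (1.26, adjusted p = 0.125). Without baseline array 2 the calls of Il1b (0.83, adjusted p = 0.214) and Il18 (1.21, adjusted p = 0.0633) were also lost. With the preparation wording as a term, which NKT cell arrays cannot estimate, the Il1b change was 1.06 (adjusted p = 0.092). With NKT cells fitted alone in limma, none of the 3 passed (Il1a, adjusted p = 0.116, Il1b, adjusted p = 0.396, Il18, adjusted p = 0.232). The macrophage markers were also highest on that array: their summed intensity was 797.1 to 1924 at baseline and 3317 on interferon array 1, which is the highest of the type, with 4 of 6 markers above every baseline array. The neutrophil markers summed to 264 to 291.5 at baseline and to 370 on that array, with 5 of 6 above. On neutrophil arrays this sum was 42660 or more. Interferon array 1 of CD8+ T cells and that of dendritic cells also had 5 of 6 neutrophil markers above every baseline array of the type. Whether macrophages or neutrophils had a part in the 3 NKT cell changes was not tested.

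**Figure D4:**
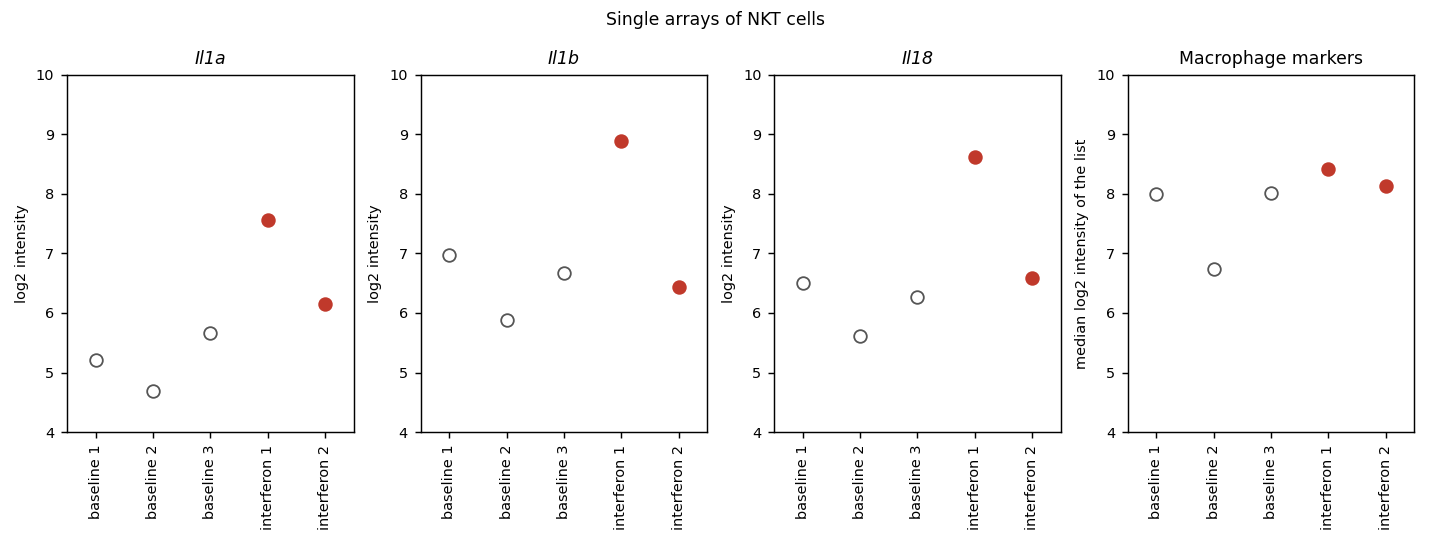
Log2 intensity of Il1a, Il1b and Il18 on each NKT cell array (open, baseline; filled, interferon) and, at the right, the median log2 intensity of the 6 macrophage markers on the same arrays. Interferon array 1 is the highest of the 5 arrays in each panel, and for Il1b interferon array 2 (6.43) lies among the baseline arrays.

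The Casp1 and Casp4 calls in NKT cells did not rest on 1 array. Casp1 went from 5.91, 5.60 and 5.93 to 8.09 and 7.19 (1.83, SE 0.229, adjusted p = 5.06e-07), and Casp4 from 5.60, 5.43 and 6.32 to 9.13 and 7.93 (2.75, SE 0.333, adjusted p = 2.9e-07). Both interferon arrays of each gene lay above all baseline arrays, with array 1 the higher. Without array 1 the changes were 1.38 for Casp1 and 2.15 for Casp4, and both calls held.

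Of 55 further genes of the pathway, also listed with earlier results of these data known, 47 were measured. Of these, 20 were called in at least 1 type or on average, as were 9.91% of all genes. By role, 5 of 9 measured sensors, 8 of 18 regulators and effectors, 0 of 6 further cytokines of the family, 3 of 6 receptors and 1 of 8 signalling genes were raised in at least 1 type, and 2 regulators and 1 signalling gene were lowered in at least 1. Of all genes, 5.39% were raised and 4.62% lowered in at least 1 type. Neutrophils had 14 raised and 3 lowered (2.43% and 2.85% of all genes), NKT cells 10 and 0 (2.89% and 0.380%), dendritic cells 6 and 0 (2.34% and 0.810%), NK cells 4 and 1 and gamma-delta T cells 4 and 0, while the other 4 types had 3 and 0 each. On average over the types 4 were raised and 0 lowered, and the median mean change was 0.16 against -0.01 over all genes. At baseline, 16 of the 47 were higher and 6 lower in the myeloid types, against 5.24% and 3.74% of all genes.

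**Figure D5:**
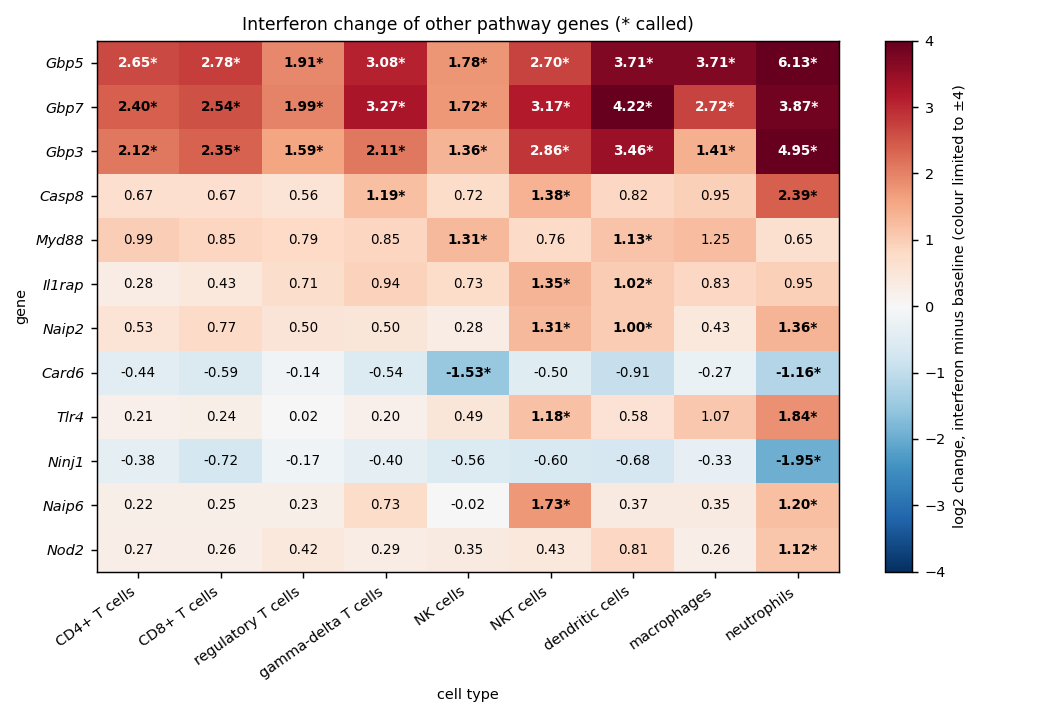
Log2 change (interferon minus baseline) of the 12 further pathway genes with the largest mean change among those called, by cell type, with a star for an adjusted p below 0.05 and a change of at least 1 in either direction. The rows of Gbp5, Gbp7 and Gbp3 are starred in all 9 types, and no other row is.

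The guanylate-binding proteins, which act on bacterial membranes upstream of Casp4, rose in all 9 types: Gbp5 by 3.16 on average (SE 0.0925, adjusted p = 2.39e-24), Gbp7 by 2.88 (SE 0.102) and Gbp3 by 2.47 (SE 0.0763). Gbp5 and Gbp3 had their largest changes in neutrophils (6.13 and 4.95), and Gbp7 in dendritic cells (4.22). Casp8, a caspase that can also cleave gasdermin D, rose in 3 types with the largest change in neutrophils (2.39) and a mean of 1.04 (SE 0.0895, adjusted p = 2.46e-11). Among the sensors, Naip2 and Naip6 belong to the receptors for bacterial flagellin and secretion systems. Naip2 was raised in 3 types (neutrophils, 1.36) and Naip6 in 2 (NKT cells, 1.73), and probes of such close relatives may not separate them fully. The other raised sensors, some of them of other kinds, were not among the 12 genes named. Nod2, a sensor of bacterial muramyl dipeptide, was raised in neutrophils (1.12), and Tlr4, the lipopolysaccharide receptor, in neutrophils (1.84) and NKT cells (1.18). On the receiving side, Il1rap, the shared co-receptor of IL-1, rose in NKT cells (1.35) and dendritic cells (1.02), and Myd88, the adaptor of IL-1 and Toll-like receptors, in NK cells (1.31) and dendritic cells (1.13). Falls were fewer: Ninj1, which ruptures the membrane after pore formation, fell by 1.95 in neutrophils (SE 0.245, adjusted p = 4.49e-07), and Card6 fell in NK cells (-1.53) and neutrophils (-1.16). The NKT cell calls here rest on the same 2 interferon arrays as those of Il1a and Il1b.

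Genes with a similar pattern were sought over the 18 group means, which share arrays and baseline groups, among 4287 genes whose means spanned at least 2 log2 units. This likeness is a description without a test, and Gsdmd, with a span of 1.84, was left out. Casp1 and Casp4 were most like each other (Pearson r = 0.94), followed by Cers6 (0.927) and Il15 (0.906) for Casp1 and Tdrd7 (0.92) and Cpne3 (0.906) for Casp4. Nlrp3 was most like Cpne2 (0.986), Trpm2 (0.982) and Ptafr (0.981), and Pycard like Lactb2 (0.902), Dbi (0.894) and B3glct (0.894). Il1a followed Ptprm (0.979), C1qa (0.971), which was also in the macrophage marker list, and Apoc1 (0.968). Il1b was most like Klra17 (0.981), Ifitm1 (0.978) and Ptgs2 (0.975), and Il1rn like Retnlg (0.976), which was in the neutrophil marker list, Arg2 (0.975) and Il1f9 (0.974), itself a cytokine of the family. Il18 was nearest to Acer3 (0.959), Tifa (0.947) and Ifi207 (0.94), and Il18bp to Whamm (0.953), Acod1 (0.939) and Casp12 (0.912).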

How the data were processed

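The deposited values are linear intensity values per probe set and array, and per the submitters' processing notes the authors made them with Affymetrix Power Tools and RMA, which summarises probes and normalises across arrays. For the genome build and the tools' versions, the sources used here give nothing. The values ran from 4.69 to 22042, with array medians of 105 to 125, and their log2 was used without rescaling. Precision is limited by the number of arrays, and no probe set was judged detected or not. Probe sets with 1 symbol in the platform annotation were kept (21425 of 24922), the brightest where a symbol had several, which left 19752 genes.

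A limma model (version 3.58.1, R 4.3.3; lmFit, then eBayes) held a mean for each of the 18 groups and left 25 residual degrees of freedom, and the single macrophage interferon array was assumed to vary like the others. P-values were adjusted by Benjamini-Hochberg over all genes within a comparison. Medians of lists are given beside those of all genes, and no test was run over a list. The fit was tested on simulated data.

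The members and all gene and marker lists were chosen with earlier results of these data known. All 10 members were named. Of the further pathway genes, those called in a type or on average were named, up to 12 by absolute mean change. For likeness the 3 genes with the highest correlation were named, leaving out predicted models and small RNAs. The main model did not pair arrays by replicate number. Deviations of same-numbered baseline and interferon arrays of a type correlated between -0.301 and 0.347 over 16 pairs of arrays. Of these, 7 were above 0.1, and both values were positive in NK cells, NKT cells and neutrophils. Such values do not settle whether the numbers pair the samples. Alternatives were a term for preparation wording, baseline array 3 alone, each type fitted alone, a replicate block, quantile normalisation, a filter on dim genes, the mean of probe sets, robust moderation with a variance trend, and leaving out each array in turn.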

Additional observations from a re-analysis of the deposited data

Results flagged for a closer look

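In 5 cases a change differed between cell types by a direct limma test of the difference. In neutrophils the interferon change exceeded the mean of the other 8 types by 1.63 for Casp1, by 2.57 for Il18 and by 1.81 for Il18bp (log2), and these differences are relative to types in which Casp1 rose as well. In NKT cells the Il1a change exceeded that mean by 1.51, a difference that was 0.80 without interferon array 1 and also did not pass without baseline array 1 (adjusted p = 0.0537) or 2 (adjusted p = 0.125). The Il18 change was larger in the 3 myeloid types, taken as an average, than in the 6 lymphocyte types by 1.79. Dendritic cells (1.06) nevertheless changed less than NKT cells (1.47), and the macrophage change rests on 1 interferon array. Against baseline array 3 alone, which leaves out neutrophils, the difference was 1.29 and was not called.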

How the results depend on the processing

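Of 50 results of members, 38 of them called, 46 kept their side of the threshold with a term for preparation wording (4 calls lost). That term does not test preparation in neutrophils, NKT cells, NK cells and CD4+ T cells, whose own arrays cannot estimate it. With dim genes left out 50 were kept, with a variance trend and robust moderation 50, and with quantile normalisation 46 (3 calls lost, 1 gained). The mean of probe sets also kept 50, but each member has 1 probe set, so no change of a member could differ in size. With the replicate block 49 were kept and the Il1rn change in macrophages became 1.02 (adjusted p = 0.0153), which is a call. Fitting each type alone kept 26 of 34, with 6 calls lost and 2 gained. The lost calls were Casp1 and Casp4 in CD4+ T cells, Il1a, Il1b and Il18 in NKT cells and Il18bp in macrophages. The gained ones were Casp4 in regulatory T cells and Il18 in dendritic cells. Against baseline array 3 alone, where neutrophils give no value and fewer arrays enter, members were raised 7 times instead of 23, and 0 differed in change among types, 0 were raised more in myeloid types and 0 more in 1 type than in the others. With NKT cells left out, chosen after seeing the data, 2 members instead of 1 were raised more in the myeloid types. Leaving out each array in turn gave 19 to 25 raised calls, 2 to 3 members raised on average, 2 to 6 differing among types, 9 to 10 differing at baseline, 7 higher in myeloid types at baseline, 1 to 2 raised more in myeloid types and 3 to 5 raised more in 1 type. Of 688 values with an array left out, 664 kept their side of the threshold, 17 lost a call and 6 gained one. The 1 reversal was Il1b in NKT cells, whose change ran from -0.080 (adjusted p = 0.934) without interferon array 1 to 2.37 without interferon array 2. Il18bp in macrophages missed the threshold under quantile normalisation (1.01, adjusted p = 0.093), and Casp4 in CD8+ T cells without interferon array 1 (1.48, adjusted p = 0.0852). The causes were not tested. Macrophage results rest on 1 interferon array, and low levels of Il1a and Il18 in lymphocytes lie near the dim end of the arrays.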
